A study of Hydra vulgaris with 99 samples.

Results

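Tips of Hydra that were regrowing a head were compared with tips that were regrowing a foot, at 16, 24, 36 and 48 h after the body column had been cut at its middle. Hydra is a freshwater polyp with an oral-aboral axis. A mouth cone and tentacles form its apical end (the head), and a peduncle with a basal disk forms its basal end (the foot). When the column is cut, the lower piece regrows a head at its upper wound and the upper piece regrows a foot at its lower wound. In the regrowing head, canonical Wnt signalling is known to set up an organizer that directs the surrounding tissue. The foot ends in a disk of differentiated cells that secrete mucus and attach the animal. The design therefore holds the level of the cut constant and compares opposite ends that form from neighbouring tissue.

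The comparison took 24 of the 99 RNA-seq libraries of the time course, chosen by their labelled end, level and time: 12 of apical tips and 12 of basal tips, with 3 biological replicates (A, B and C) for each end and time. All animals were Hydra vulgaris of the strain Jussy, fed 3 times a week and otherwise untreated. Apical tips regenerated the head from the 50% level, the mid-gastric position, and basal tips regenerated the foot from the same 50% level. Tips of both ends at 0 h, homeostatic heads cut below the tentacles, homeostatic basal disks with the lower peduncle, and apical tips regenerating after decapitation at the 80% level at 0 and 48 h served as outside references, each with n = 3. Each library pooled tissue of 20 to 25 animals, so variation between single animals was averaged within a library. In such bulk tissue, fewer cells of a type and less RNA per cell cannot be told apart.

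The 24 libraries ranged from 28035536 to 54273942 reads (median 33124230) and each detected 53963 to 58905 transcript sequences. Replicates of one end and time correlated with Pearson r between 0.941 and 0.977 across 21035 sequences, which are not independent of each other. No pair of replicates agreed within sampling noise. On the first principal component of the 24 libraries, which held 23.7% of the variance, apical libraries stood between 7.7 and 23.9 at 16 h and between 30.6 and 42.9 at 48 h. Basal libraries stood between -16.2 and -6.5 at 16 h and between -54.7 and -42.5 at 48 h. The ends did not overlap on this component at any of the 4 times, and they lay farther apart at 48 h than at 16 h. On the second component, with 18%, the libraries below 0 were replicates B and C at 16 and 48 h and replicate C at 36 h, at both ends alike. The labels name no batch, and counts with the letter as a block are given below.

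The deposited identifiers name assembled transcript sequences and the loci they belong to. None of them matched the RefSeq gene table used here, so results are given for sequences and loci, and genes, pathways and cell type markers could not be looked up. The labelled tissues could therefore be checked only against the homeostatic ends. A sequence was called when its adjusted p was under 0.05 and the size of its log2 fold change reached 1 or more, by edgeR's quasi-likelihood F-test with Benjamini-Hochberg adjustment over all 54272 sequences tested. A positive log2 fold change means a higher level in apical tips. Levels of single sequences are given as CPM, the count scaled to the size of the library, which is not divided by length and is compared only within a sequence.

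Apical and basal tips differed in 401 sequences at 16 h and in 2517 at 48 h. At 16 h, 194 were higher and 207 lower in apical tips, 0.739% of all sequences tested. At 24 h, 1121 were called, 2.07% of those tested, with 453 higher and 668 lower in apical tips. At 36 h, 1717 were called, 3.16% of those tested, with 757 higher and 960 lower. At 48 h, 1394 were higher and 1123 lower, 4.64% together. Lower calls thus outnumbered higher ones at 24 and 36 h, and higher calls outnumbered lower ones at 48 h, in each setting tried. At 16 h the balance depended on the setting, with 314 higher and 310 lower by DESeq2 and 169 and 148 without the apical libraries of replicate C. The called sequences lay in 338, 876, 1282 and 1836 loci at 16, 24, 36 and 48 h.

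**Figure D1:**
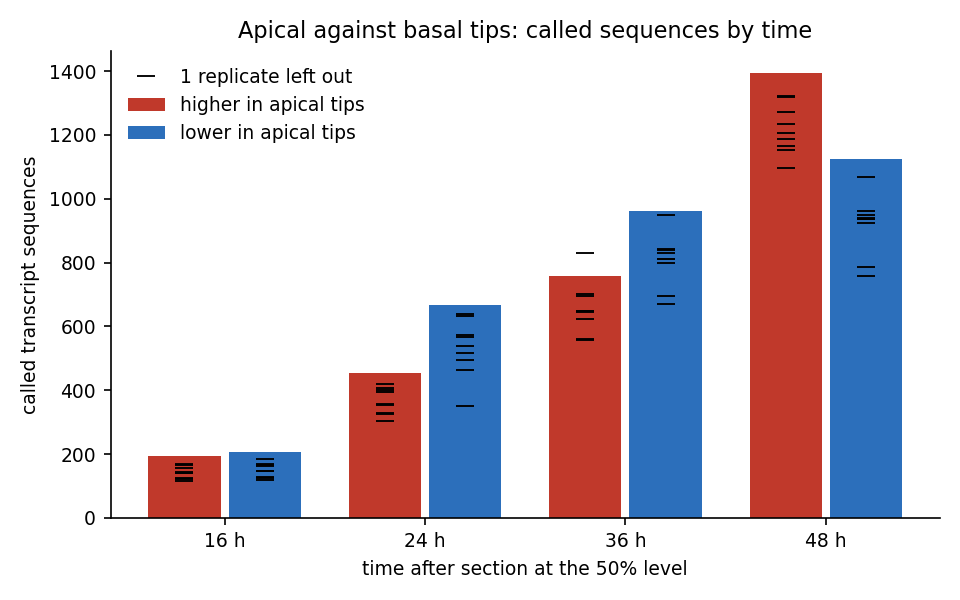
Number of called transcript sequences (bars, linear axis from 0) higher (red) or lower (blue) in apical than in basal tips at 16, 24, 36 and 48 h, with n = 3 libraries per end and time. Dashes give the same count with 1 replicate of an end or of both ends left out; calls number 401 in all at 16 h and 2517 at 48 h, and higher calls outnumber lower ones at 48 h with every set of libraries drawn.

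The typical size of a called difference changed little: the median absolute log2 fold change of called sequences was 1.82, 2.04, 2.11 and 2.08 in order of time. Large differences became more frequent. Log2 fold changes of 4 or more in size numbered 27 higher and 16 lower at 16 h, 90 and 142 at 24 h, 162 and 255 at 36 h, and 299 and 300 at 48 h. All 3 libraries of one end stood above all 3 of the other for nearly all called sequences, namely for 191 of 194 and 203 of 207 at 16 h and for 1379 of 1394 and 1106 of 1123 at 48 h. The same libraries had made the calls, so this separation is not separate evidence for them. The median level of called sequences was 3.89 CPM at 16 h and 1.9 CPM at 48 h, beside 0.885 CPM for all sequences tested.

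A test over all 4 times together found a difference at 1 or more times for 6012 sequences, 11.1% of those tested (adjusted p under 0.05, no minimum fold change). The same letter marked libraries that deviated together at both ends, as described with the processing. With the letter as a block within each time, this test called 9376 sequences. With the block, the counts for single times were 592, 1395, 2041 and 2880, each within 1.5 times of the count without it.

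Sequences whose mean log2 CPM reached 5 and whose groups did not overlap were ranked by their log2 fold change, and the first 2 in each direction are described for each time. A change from 16 to 48 h reuses the libraries that chose the sequences named at 16 or 48 h. Its size is therefore favoured by that choice. A sequence called higher in homeostatic head than in foot is called a head sequence, and one called lower a foot sequence. At 48 h, the largest value in favour of apical tips belonged to seq17014_loc07385_tr0630948, the only sequence of its locus. In apical tips it stood at 22.8, 13.9 and 22.2 CPM at 16 h, at 208, 137 and 168 CPM at 24 h, at 962, 677 and 581 CPM at 36 h, and at 1930, 1220 and 2190 CPM at 48 h (replicates A, B and C). In basal tips it stood at 3.6, 5.37 and 4.19 CPM at 16 h, at 5.84, 4.08 and 3.66 CPM at 24 h, at 4.21, 23.6 and 2.69 CPM at 36 h, and at 3.26, 3.26 and 4.31 CPM at 48 h. Every apical library lay above every basal one at each of the 4 times, and basal replicate B at 36 h stood above its replicates. The log2 fold changes in order of time were 2.17, 5.24, 6.19 and 8.94, the last with an SE of 0.59 and an adjusted p = 2.1e-20. Without the basal libraries of replicate B the value at 36 h was 7.74. The difference grew by 6.78 on the log2 scale from 16 to 48 h (SE 0.66, adjusted p = 2.44e-12). Homeostatic heads held 4570, 2890 and 3160 CPM and feet 0.86, 1.43 and 1.55 CPM, which makes it a head sequence.

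On the basal side, the 2 sequences with the largest differences at 48 h stood at no more than 3.94 CPM in basal tips at 16 h and at no less than 331 CPM from 36 h on. The sequence seq25416_loc10254_vl0313230, the only one of its locus, stood in basal tips at 1.02, 3.94 and 0.678 CPM at 16 h, at 93.8, 142 and 24.1 CPM at 24 h, at 398, 575 and 447 CPM at 36 h, and at 649, 888 and 669 CPM at 48 h. In apical tips it stood at 0.188, 0.656 and 0.36 CPM at 16 h and at 1.57, 14.6 and 1.03 CPM at 48 h. The ends did not overlap at either time, but at 16 h the difference was not called (log2 fold change -2.18, adjusted p = 0.735). The log2 fold change was -8.83 at 24 h, -8.37 at 36 h and -7.00 (SE 1.04, adjusted p = 3.34e-07) at 48 h. The change of the difference from 16 to 48 h, -4.82 (SE 1.56), did not pass the test (adjusted p = 0.0745).

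The sequence seq02440_loc01408_vl0037548 is 1 of 5 sequences of its locus, of which 4 were called lower in apical tips at 48 h. In basal tips it stood at 0.266, 1.75 and 0.801 CPM at 16 h, at 26.8, 57.6 and 5.04 CPM at 24 h, at 331, 530 and 393 CPM at 36 h, and at 885, 1040 and 809 CPM at 48 h. In apical tips it stood at 0.595, 1.34 and 0.95 CPM at 16 h and at 1.82, 18.8 and 1.2 CPM at 48 h. The ends overlapped at 16 h and did not overlap at 48 h. The log2 fold changes in order of time were 0.10, -5.40, -7.75 and -6.97, the last with an SE of 0.98 and an adjusted p = 7.44e-08. From 16 to 48 h the difference changed by -7.08 (SE 1.34, adjusted p = 0.000145). At 24 h, basal replicate C had the lowest level of the basal libraries for both sequences.

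Both were foot sequences. Feet held 929, 793 and 450 CPM of the first and 1760, 1370 and 727 CPM of the second, and heads held at most 0.474 and 1.03 CPM. Apical replicate B at 48 h stood above apical replicates A and C for both, with 14.6 and 18.8 CPM, and so did apical replicate C at 0 h, with 12.8 and 13.6 CPM beside at most 0.657 CPM in the other apical 0 h libraries. Without the apical libraries of replicate B, the log2 fold changes at 48 h were -9.14 and -9.24, each with the call kept. The summed level of foot-high sequences, given with the sums below, was not raised in apical replicate B at 48 h. In apical replicate C at 0 h it was the highest of its group, with 100912 CPM beside 94493 and 98512 CPM. Of the 2396 sequences summed, 140 were at 0 reads in the former library, beside 212 and 216 in its replicates. In the latter library 141 were, beside 220 and 187. Apical replicate B had the fewest at 0 reads at 16, 24 and 36 h as well. What sets these libraries apart was not tested.

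**Figure D2:**
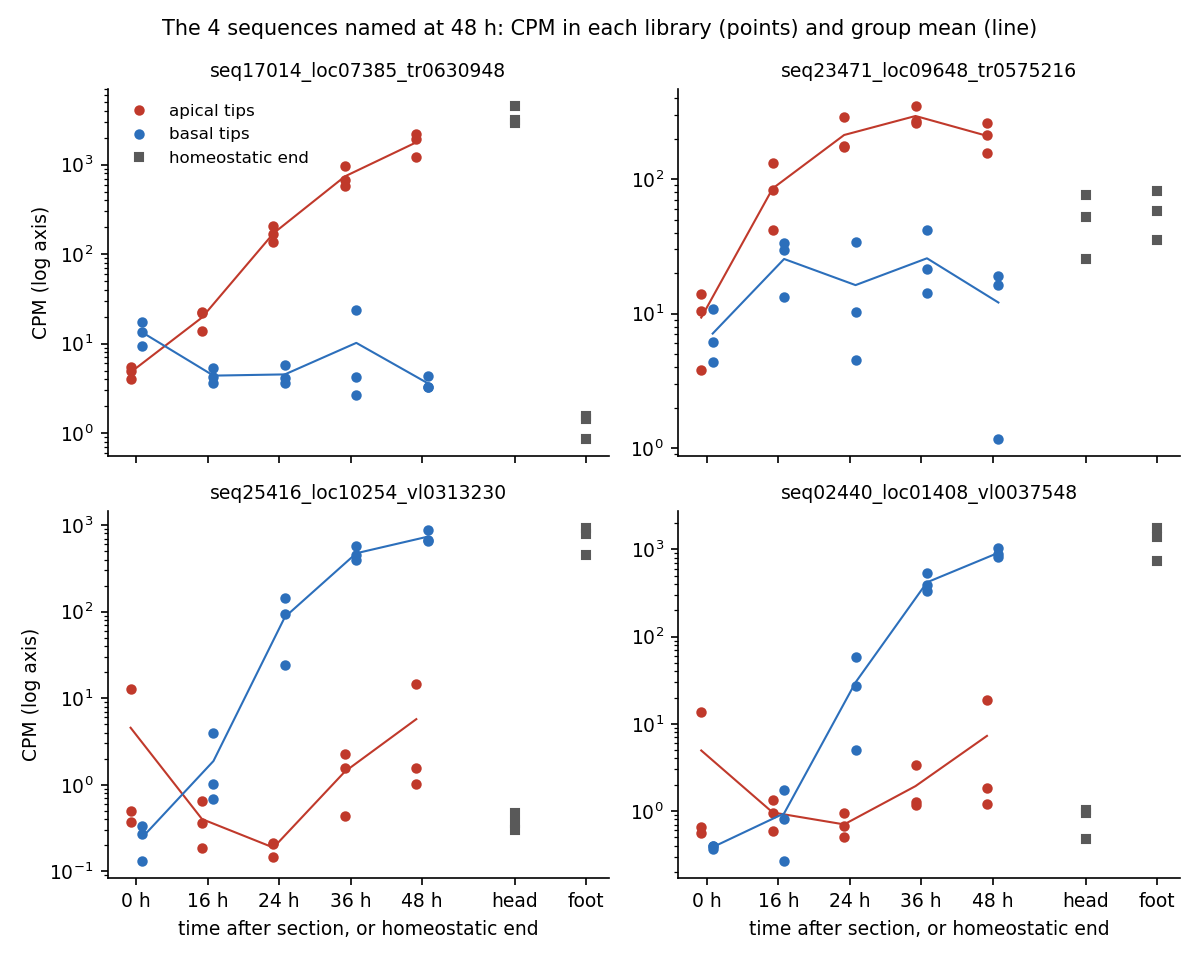
Level in CPM (log axis) of the 4 transcript sequences named at 48 h, in each library of apical (red) and basal (blue) tips at 0, 16, 24, 36 and 48 h and of homeostatic head and foot (grey squares). Points are libraries (n = 3 per group) and lines join group means; the upper left sequence climbs to 1930, 1220 and 2190 CPM in apical tips, and the lower pair climbs to between 649 and 1040 CPM in basal tips.

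The fourth sequence named at 48 h, seq23471_loc09648_tr0575216, was high in apical tips without being a head sequence. It is 1 of 17 sequences of its locus, of which 10 were tested and 4 were called higher in apical tips at 48 h. Apical tips held 131, 83.3 and 41.6 CPM at 16 h, 292, 172 and 175 CPM at 24 h, 352, 270 and 263 CPM at 36 h, and 157, 213 and 261 CPM at 48 h. Basal tips held 33.3, 29.9 and 13.3 CPM at 16 h, 34, 4.51 and 10.3 CPM at 24 h, 41.9, 14.2 and 21.4 CPM at 36 h, and 1.17, 18.9 and 16.2 CPM at 48 h. The ends did not overlap at any of these times, and the lowest value of all was basal replicate A at 48 h. Homeostatic heads held 52.2, 25.3 and 75.7 CPM and feet 58.1, 35 and 81.4 CPM, which overlapped (log2 fold change -0.19, SE 0.88, adjusted p = 0.949). At 0 h the levels were 13.9, 10.4 and 3.84 CPM in apical and 6.11, 10.8 and 4.36 CPM in basal tips. The log2 fold change was 1.74 at 16 h (adjusted p = 0.734), 3.71 at 24 h (0.013), 3.51 at 36 h (0.0139) and 4.12 at 48 h (SE 1, 0.00226). Its call at 48 h held in every setting tried, with adjusted p up to 0.0492. At 24 h it was lost without the apical libraries of replicate A (adjusted p = 0.0557), the basal ones of B (0.157) or the basal ones of C (0.102), and the log2 fold change was 4.85 without the basal ones of A. At 36 h it was lost without the basal libraries of replicate B (0.113) or C (0.088).

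Some differences were largest early. At 16 h, 17 sequences higher and 22 lower in apical tips met the same conditions of level and separation. The largest positive value among them belonged to a sequence that stood at 143, 121 and 149 CPM in apical and 24.2, 17.4 and 17.2 CPM in basal tips (log2 fold change 2.82, SE 0.26, adjusted p = 1.27e-12). At 0 h it had stood at 80.4, 72.8 and 50.3 CPM in apical and 47.5, 96.8 and 63.6 CPM in basal tips. The 16 h apical libraries thus lay above, and the 16 h basal libraries below, all 0 h libraries of either end. At 48 h it stood at 130, 84.8 and 110 CPM against 47.3, 40.1 and 44.8 CPM, and the difference had changed by -1.52 since 16 h (SE 0.35, adjusted p = 0.00302).

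The next sequence in that order was not called between the homeostatic ends. It stood at 113, 88 and 86.8 CPM in apical and 17.3, 11.2 and 14.3 CPM in basal tips at 16 h (log2 fold change 2.75, SE 0.22, adjusted p = 8.1e-15). Heads held 41.2, 48.4 and 31.9 CPM and feet 44.6, 40.9 and 32.3 CPM, which overlapped (0.05, adjusted p = 0.949). At 24 h the difference was 1.90, at 36 h 0.47 (adjusted p = 0.267) and at 48 h 0.67 (0.0289, below the fold-change minimum). Its mean level in basal tips was 14.3 CPM at 16 h and 59 CPM at 36 h (n = 3), and that in apical tips 95.9 and 81.6 CPM. The difference changed by -2.08 on the log2 scale from 16 to 48 h (SE 0.30, adjusted p = 4.65e-07).

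The pair of sequences that were furthest below in apical tips at 16 h belong to 1 locus and were called higher in head than in foot, though neither was highest in the head. The first stood at 46.9, 11.5 and 14.7 CPM in apical and 378, 240 and 146 CPM in basal tips (log2 fold change -3.39, SE 0.48, adjusted p = 7.25e-07). Its partner stood at 60.1, 14 and 12.9 CPM and at 435, 293 and 142 CPM (-3.32, SE 0.47, 9.54e-07). Without the apical libraries of replicate A the values were -4.28 and -4.43. Heads held 123, 233 and 138 CPM of the first and feet 0.215, 0.275 and 1.34 CPM, while tips at the 80% level at 0 h held 1100, 879 and 920 CPM. For the partner the means were 239 CPM in head and 1130 CPM in those tips. The difference was already present at the cut, where the first stood at 61, 29.4 and 24.4 CPM in apical and 426, 533 and 463 CPM in basal tips (-3.63, SE 0.48, 6.51e-07). By 48 h apical tips held 93.5, 46 and 44.6 CPM and basal tips 124, 56.4 and 99.4 CPM, which overlapped (-0.61, adjusted p = 0.551). The change of the difference from 16 to 48 h was 2.78 (SE 0.63, adjusted p = 0.00226) for the first and 3.19 (SE 0.63, 0.000291) for its partner.

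Other named sequences kept 1 direction throughout. A sequence named at 24 h stood at 182, 154 and 148 CPM in apical and 17.8, 15.3 and 18.7 CPM in basal tips, and its log2 fold changes were 2.35, 3.22, 3.00 and 3.05 in order of time. It was called at all 4 times and was higher in head (60.2, 70.1 and 58.7 CPM) than in foot (15.1, 13.7 and 14.1 CPM), and the 24 h apical level exceeded that of the head. Its counterpart on the basal side stood at 24.3, 29 and 28.9 CPM in apical and 249, 363 and 263 CPM in basal tips at 24 h (log2 fold change -3.41, SE 0.18, adjusted p = 5.16e-24). That difference was -1.89 at 16 h and -3.22 at 48 h. The other sequence furthest below in apical tips at 24 h was the first of the locus just described, at 60.1, 13.7 and 16.3 CPM against 367, 194 and 329 CPM (-3.30, and -4.31 without the apical libraries of replicate A).

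At 36 h, the 2 sequences furthest below in apical tips among the 114 that met the naming rule were foot sequences whose difference was not called at 16 h. The first stood at 2.66, 8.12 and 1.58 CPM in apical and 840, 1080 and 985 CPM in basal tips at 36 h, after 2.8, 9.28 and 1.36 CPM in basal tips at 16 h (log2 fold change -7.88, SE 1.33, adjusted p = 8.47e-06). Without the apical libraries of replicate B the value was -8.83. In feet it stood at 3050, 2060 and 1400 CPM, and in heads at 0, 0.304 and 0.267 CPM. The second stood at 5.7, 6.43 and 5.13 CPM in apical and 248, 432 and 321 CPM in basal tips (-5.86, SE 0.43, 5.99e-18). Its difference was 0.11 at 16 h, -2.61 at 24 h and -6.43 at 48 h, a change of -6.55 from 16 to 48 h (SE 0.54, adjusted p = 6.78e-15). The sequences furthest above at 36 h were seq17014_loc07385_tr0630948 and seq23471_loc09648_tr0575216, described above.

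The change of the difference between the ends was tested for all sequences. Over the 4 times, the apical minus basal difference changed for 1501 sequences, 2.77% of those tested (F-test, adjusted p under 0.05), and for 3081 with the letter block. From 16 to 48 h it changed for 1370 sequences, 2.52% of those tested, moving upward for 856 and downward for 514. Between neighbouring times few single sequences passed. From 16 to 24 h the difference moved upward for 23 and downward for 29 sequences, 0.0958% of those tested. From 24 to 36 h it moved upward for 51 and downward for 73, 0.228% of those tested, and from 36 to 48 h upward for 48 and downward for 2, 0.0921% of those tested. These 3 counts of 52, 124 and 50 depended on the setting. With the letter block they were 152, 298 and 223, and with the 24 libraries alone 14, 82 and 4. The split from 36 to 48 h was 181 upward and 42 downward with the letter block but 1 upward and 3 downward with the 24 libraries alone. The split from 24 to 36 h was 170 upward and 159 downward by DESeq2, and 67 and 56 without the apical libraries of A. The first count was 33 without the apical libraries of replicate B, 27 without those of C, 34 without the basal libraries of A and 21 without those of B. The second was 71 without the apical libraries of B and 63 without those of C. The third was 24, 32 and 19 without the apical libraries of A, B and C and 11 without the basal libraries of B.

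Sequences called at one time were followed in the libraries of the other times, which had no part in choosing them. The lists of 16 and 24 h had 301 calls of equal direction in common, 75.1% of the 16 h list and 26.9% of the 24 h list, and 0 of opposite direction. The lists of 24 and 36 h shared 737 calls in direction, 65.7% of the former and 42.9% of the latter, with 0 opposed. Between 36 and 48 h, 1304 calls kept their direction, 75.9% of the 36 h list and 51.8% of the 48 h list, and again 0 were opposed. Of all sequences tested, 2.07%, 3.16% and 4.64% were called in either direction at 24, 36 and 48 h. Over longer spans, 24 sequences were lower in apical tips at 16 h and higher at 48 h. They were 11.6% of the 207 lower at 16 h, beside 2.57% of all sequences called higher at 48 h. The other way round there were 6, or 3.09% of 194, which is near the 2.07% of all sequences called lower at 48 h.

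In all, 3324 sequences were called at 1 or more of the 4 times, and 37 of them in opposite directions at different times. Sequences called at every time numbered 101 higher and 69 lower in apical tips. Of the 1394 sequences higher at 48 h, 779 were called at 48 h but not at 36 h, 335 had been called from 36 h on, 179 from 24 h on and 101 from 16 h on. Of the 1123 lower at 48 h, the same counts were 434, 348, 272 and 69. A count of this kind depends on a threshold at each time, and a sequence that missed it at one time was not shown to be equal between the ends.

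Sequences chosen at 36 h showed this course without a threshold at the other times. The 757 called higher in apical tips at 36 h had median log2 differences of -0.18, 0.45, 1.10 and 2.40 at 0, 16, 24 and 48 h. The 960 called lower had medians of 0.16, -0.46, -1.37 and -1.98. The medians of all sequences tested lay between -0.01 and 0.01 at these times. From 16 to 48 h the difference moved upward, as a called change, for 343 of the 757 and downward for 2, and downward for 288 of the 960 and upward for 9. Of all 54272 sequences tested it moved upward for 856 and downward for 514, 2.52% together.

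**Figure D3:**
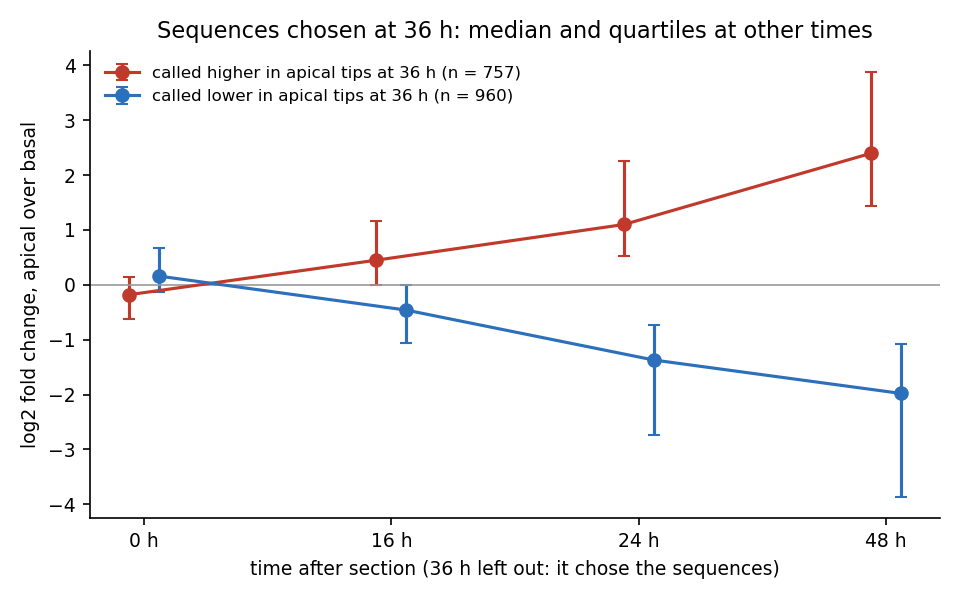
Log2 fold change of apical over basal tips at 0, 16, 24 and 48 h for the sequences called at 36 h, as median (point) and quartiles (bar) over 757 sequences higher (red) and 960 lower (blue) in apical tips at 36 h. The medians lie near 0 at 0 h and reach 2.40 and -1.98 at 48 h; the 36 h libraries, which chose the sequences, are left out.

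The same sequences show at which end the level had changed. Their levels at 48 h were set against those at 0 h within each end, again in libraries that had not chosen them. Of the 757 sequences higher in apical tips at 36 h, 552 had risen in apical tips by 48 h (background 3.64% of all sequences), with a median log2 fold change of 2.07. In basal tips 37 had risen (background 4.00%) and 169 had fallen (background 2.18%), with a median of -0.43. In the apical tips of decapitated animals, from the 80% level, 450 of the 757 had risen (background 3.56%), with a median of 1.60. In each apical series, counted separately, 72.9% (50% level) and 59.4% (80% level) of these sequences had thus risen, and in basal tips 22.3% had fallen.

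Of the 960 sequences lower in apical tips at 36 h, 636 had risen in basal tips by 48 h (background 4.00%), with a median log2 fold change of 2.11. In apical tips from the 50% level 90 had risen (background 3.64%) and 136 had fallen (background 1.67%), with a median of -0.03. In apical tips from the 80% level the median was 0. There 115 (12%, background 3.56%) had risen and 109 (11.4%, background 1.69%) had fallen. Over all sequences tested the medians were 0 in apical tips from the 50% level, 0.07 in basal tips and 0.09 in apical tips from the 80% level. On the basal side, 66.2% of the sequences had thus risen in basal tips. Apical tips of either level held members of either direction, with 14.2% fallen and 9.38% risen from the 50% level.

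The sequences called at 16 h, on either side, had more often risen, and more often fallen, than all sequences at either end. The 207 that were lower in apical tips at 16 h had a median change from 0 to 48 h of 0.32 in apical and 0.57 in basal tips. In basal tips 85 of them (41.1%, background 4.00%) had risen and 50 (24.2%, background 2.18%) had fallen by 48 h. In apical tips 66 (31.9%, background 3.64%) had risen and 27 (13%, background 1.67%) had fallen. The 194 that were higher at 16 h had medians of 1.59 in apical and -0.14 in basal tips. In apical tips 117 (60.3%, background 3.64%) had risen and 8 (4.12%, background 1.67%) had fallen. In basal tips 27 (13.9%, background 4.00%) had risen and 33 (17%, background 2.18%) had fallen.

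The relation to the homeostatic ends also changed with time. Of all sequences tested, 7.39% were called higher and 7.00% lower in head than in foot. Of the sequences called at 16 h, 152 (37.9%) had the same direction in head against foot, that is, higher in apical tips and in head or lower in both, and 100 (24.9%) had the opposite one. At 24 h, 588 (52.5%) had the same and 119 (10.6%) the opposite direction, and at 36 h 1142 (66.5%) and 71 (4.14%). At 48 h the share with the opposite direction was 1.59%, or 40 sequences. With all libraries of a letter left out, the counts of same and opposite direction at 16 h were 88 and 60 without A, 95 and 42 without B, and 99 and 56 without C. At 24 h they were 357 and 55 without B, and the opposite count was 69 without C. Opposite counts at 36 h were 36 without B and 35 without C, and at 48 h 23, 12 and 20 without A, B and C.

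The opposite direction at 16 h came more from one side than from the other. Of the 207 sequences lower in apical tips at 16 h, 77 (37.2%) were higher in head and 53 (25.6%) were higher in foot, so that head sequences outnumbered foot sequences among those high in basal tips. Of the 194 higher in apical tips, 99 (51%) were higher in head and 23 (11.9%) in foot. At 48 h, 25 of the 1123 sequences lower in apical tips were higher in head and 779 were higher in foot. The difference between these shares was not tested.

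**Figure D4:**
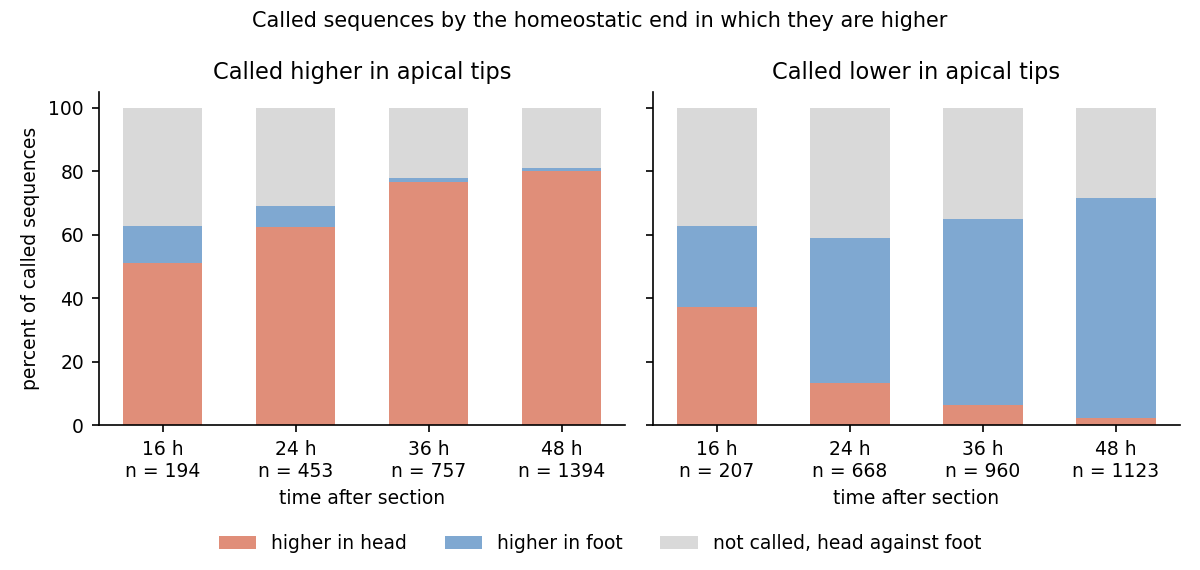
Percent of the sequences called higher (left) or lower (right) in apical tips at 16, 24, 36 and 48 h that were called higher in homeostatic head (orange), higher in foot (blue) or not called between head and foot (grey). On the right, the share higher in head goes from 37.2% of 207 sequences at 16 h to 2.23% of 1123 at 48 h.

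The tips also differed before regeneration began. At 0 h, 145 sequences were called between the tips, 0.267% of those tested, 49 higher and 96 lower in apical tips. Without replicates A, B or C of both ends in turn the count was 108, 69 and 62. Of the 96 that were lower in apical tips at 0 h, 46 were called lower at 16 h as well and 6 higher. At 48 h, 51 of them were called higher and 6 lower. Their median log2 fold change was -1.22, -0.91, 0.29 and 1.27 at 16, 24, 36 and 48 h. The 49 that were higher in apical tips at 0 h had medians of 0.57, -0.45, -0.90 and -1.71 at these times, with 9 called higher and 7 lower at 16 h and 2 called higher and 28 lower at 48 h. Sequences that separated the fresh wounds therefore had, in the median, the opposite sign 48 h later. Of all sequences tested, 0.357% were called higher and 0.381% lower at 16 h, and 2.57% and 2.07% at 48 h.

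On the list described next, the summed level of head sequences reversed its order between the ends. That of foot sequences overlapped at 0 h and parted later. Both readings of 0 h depended on the list, as given below. Sequences that separated head and foot by a log2 fold change of 2 or more in size were taken, 2332 higher in head and 2396 higher in foot, and their CPM values were added within each library. The head sequences summed to 14362, 15035 and 15428 CPM in apical and 18559, 22406 and 22009 CPM in basal tips at 0 h, with every basal library above every apical one. With a log2 fold change of 1 or more in head against foot, the ends overlapped at 0 h. The sums were then 43215, 46760 and 49494 CPM in apical and 48205, 59445 and 58878 CPM in basal tips. At 16 h the head sequences of the first list summed to 17047, 13698 and 15199 CPM in apical tips. In basal tips they summed to 18528, 16012 and 15637 CPM, and the ends overlapped. At 24 h the sums were 19017, 16485 and 17743 CPM against 15989, 14054 and 17042 CPM, and the ends still overlapped. The order of the means at 24 h depended on the list: it was 17748 CPM in apical against 15695 CPM in basal tips here, and 49239 against 50836 CPM with a log2 fold change of 1 or more in head against foot.

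At 36 h apical tips held 23788, 20399 and 21105 CPM of the head sequences and basal tips 13879, 14134 and 14547 CPM. At 48 h they held 34650, 27246 and 32851 CPM against 11880, 10332 and 12006 CPM, and the ends no longer overlapped at either time. The mean of apical tips was 2.77 times that of basal tips at 48 h and 0.712 times at 0 h. Homeostatic heads held 97946, 75295 and 88366 CPM of these sequences and feet 8766, 7014 and 8760 CPM, so apical tips at 48 h lay between the ends.

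The foot sequences started high in tips of both ends. They summed to 94493, 98512 and 100912 CPM in apical and 99307, 91491 and 90721 CPM in basal tips at 0 h, beside 126843, 111933 and 100468 CPM in feet and 8120, 10820 and 7757 CPM in heads. At 16 h the sums were 80794, 73688 and 87061 CPM in apical and 88060, 74455 and 87629 CPM in basal tips, with overlap. At 24 h apical tips held 67315, 76017 and 73078 CPM and basal tips 83957, 79657 and 80101 CPM, with the ends apart. At 48 h the values were 57326, 46659 and 52374 CPM against 95535, 96715 and 103169 CPM. The apical means at 0 and 48 h were 97972 and 52120 CPM, and the basal means 93840 and 98473 CPM.

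**Figure D5:**
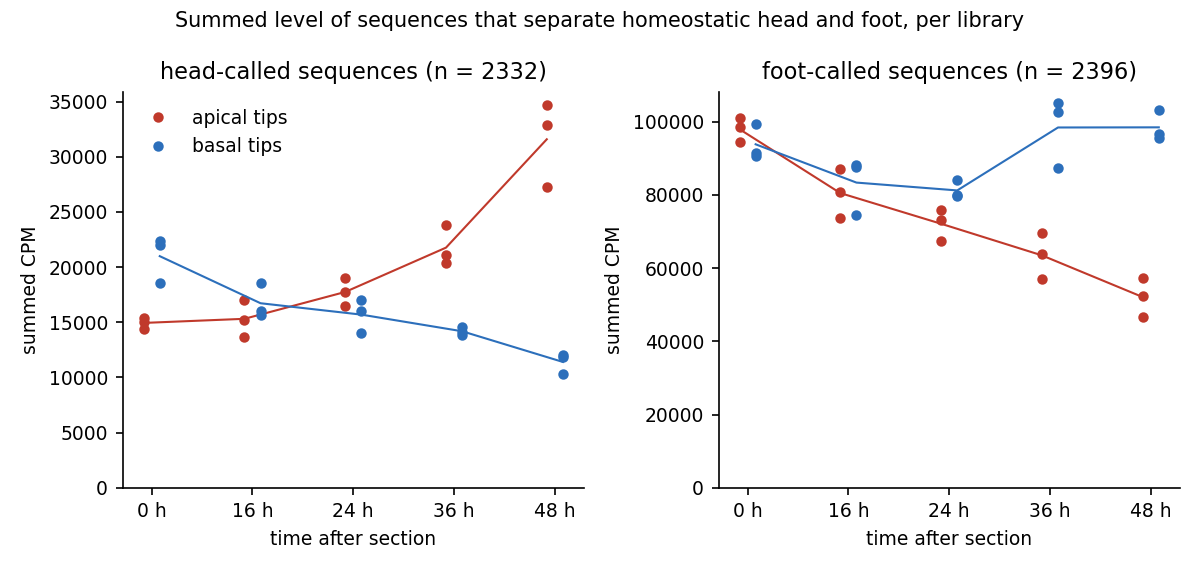
Summed CPM (linear axis from 0) of 2332 sequences higher in homeostatic head (left) and 2396 higher in foot (right), in each library (points, n = 3 per end and time) and as group means (lines) for apical (red) and basal (blue) tips. Head sequences stand higher in basal tips at 0 h and higher in apical tips at 36 and 48 h, with 31582 against 11406 CPM in the mean at 48 h, and the foot sequences of apical tips sum to 97972 and 52120 CPM at 0 and 48 h.

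A stricter list, taken after these sums had been seen, holds 503 sequences higher in head and 429 higher in foot, each by a log2 fold change of 6 or more in size. The head sequences of that list summed to 1049, 535 and 638 CPM in apical and 2880, 2011 and 1393 CPM in basal tips at 16 h, with every basal library above every apical one. At 24 h the sums were 2014, 1136 and 1212 CPM against 2736, 1377 and 2342 CPM, with overlap, and at 36 h 3808, 2848 and 2907 CPM against 1392, 963 and 1204 CPM. At 48 h they were 7419, 5308 and 6865 CPM against 814, 480 and 786 CPM, beside 25408, 19408 and 22104 CPM in heads. The order of the ends at 48 h was the reverse of that at 16 h.

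At 0 h the foot sequences of the stricter list stood at 8398, 9978 and 11203 CPM in apical tips. In basal tips they stood at 4196, 6053 and 6332 CPM, with every apical library above every basal one. At 16 h they stood at 6958, 6732 and 8317 CPM in apical and 5480, 5006 and 6857 CPM in basal tips, with overlap. At 24 h they stood at 4884, 5664 and 6903 CPM against 5659, 7338 and 6559 CPM. The ends thus overlapped at 24 h, where those of the longer list were apart. At 36 h the foot sequences of the stricter list stood at 5087, 4390 and 3989 CPM against 13337, 15636 and 12569 CPM. At 48 h the values were 3541, 3505 and 3193 CPM against 18180, 20448 and 19230 CPM. Feet held 42533, 36235 and 24360 CPM. Apical replicate B at 48 h, which was high for single foot sequences, stood between its replicates on this sum.

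The direction in which the difference changed was also split by the homeostatic end. Of all sequences tested, 7.39% were head sequences and 7.00% foot sequences. Of the 856 sequences whose difference moved upward from 16 to 48 h, 714 were higher in head, 5 higher in foot and 137 neither. Of the 514 whose difference moved downward, 375 were higher in foot, 3 higher in head and 136 neither. Between 16 and 24 h, 21 of the 23 that moved upward were head sequences and 24 of the 29 that moved downward were foot sequences. Between 24 and 36 h, 40 of the 51 that moved upward were head sequences, and of the 73 that moved downward 56 were foot sequences and 1 a head sequence. Between 36 and 48 h, 46 of the 48 that moved upward were head sequences. The lists between neighbouring times depended on the setting. With the 24 libraries alone, 1 sequence moved upward and 3 downward from 36 to 48 h.

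Most loci with a called sequence held further sequences that were not called. At 48 h, 1146 of the 1836 loci with a call had 2 or more sequences tested, and in 107 of them all sequences moved one way. In 37 loci sequences were called in opposite directions, beside 17, 9 and 1 at 36, 24 and 16 h. In the 1 locus of 16 h, with 4 sequences, one stood at 0.094, 2.47 and 1.74 CPM in apical tips and at 0 reads in all basal libraries. The other stood at 4.79, 0.298 and 0.0328 CPM in apical and 26.5, 19.1 and 9.49 CPM in basal tips (log2 fold change -3.43, SE 0.60, adjusted p = 9.66e-05), and at 48 h it was called higher in apical tips. Sequences of one locus can share reads, and how reads were divided between them is not given in the sources used here, so their separate values are uncertain.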

How the data were processed

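The authors deposited raw read counts for 79774 transcript sequences in 25879 loci, made from directional TruSeq libraries of polyA RNA, per the labels' protocols. The submitters' processing notes list cutadapt 1.11, Salmon 0.7.2 and DESeq2; their roles, the reference and any filter are not given in the sources used here. The authors also deposited a normalized signal for 40479 sequences, which equals the counts times 1 factor per library and served 1 alternative only. Identifiers found in the RefSeq genes used here numbered 0, so no sequences are printed, and lists of pathway genes and markers were not used.

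Tests on the counts used edgeR 4.0.16 under R 4.3.3, and alternatives used DESeq2 1.42.0 and limma 3.58.1 (tables were handled with the R package data.table, version 1.17.8). filterByExpr by the 33 groups kept 54272 sequences in 20612 loci, and 85.7% of these lie in loci with 2 or more sequences. All 99 libraries entered 1 model with TMM scaling, a trended dispersion and 1 coefficient per group. Contrasts were tested by the quasi-likelihood F-test with Benjamini-Hochberg adjustment. The SE of a log2 fold change is its absolute value divided by the square root of F. CPM used TMM-scaled library sizes. At each time the 2 sequences with the largest positive and the 2 with the largest negative log2 fold change were described, among called ones whose mean log2 CPM reached 5 and whose groups did not overlap. Identifiers are given for 48 h only. The procedure was tested on simulated data. Python 3.11.15 with matplotlib 3.10.9 drew the figures.

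The groups, lists and tests were chosen with earlier results of these data known. The older quasi-likelihood method of edgeR had been preferred after both methods' counts were seen. The 80% reference, the stricter head and foot list and the counts of loci with opposite calls were added after the data were seen.

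Letters were taken to pair apical and basal libraries within a time, because all 12 pairs deviated together from their group means (r from 0.103 to 0.602). The main model nevertheless held no letter term. Calls, SEs and p-values given without mention of a block are therefore unpaired, and the letter entered only in alternatives. The labels do not say what a letter marks. The p-values rest on the spread between the labelled biological replicates, which are pools. That spread was estimated within all 33 groups of the model, and not only within the groups compared.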

Additional observations from a re-analysis of the deposited data

Results flagged for a closer look

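The apical minus basal difference was not the same at all 4 times. The F-test of the difference over 16 to 48 h passed for 1501 sequences, and the change from 16 to 48 h passed for 1370, by edgeR with Benjamini-Hochberg adjustment. Among the sequences named at 48 h, the difference of seq17014_loc07385_tr0630948 changed by 6.78 on the log2 scale and that of seq02440_loc01408_vl0037548 by -7.08, each with a change that itself passed the test. The 48 h libraries also chose these sequences, which favours the size of both changes.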

How the results depend on the processing

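No log2 fold change of a named sequence changed sign in any setting run. The balance of higher and lower calls at 24, 36 and 48 h also kept its side, while that at 16 h, that of head against foot and those of the 3 changes between neighbouring times turned in some settings. With RLE size factors the share of higher calls moved by less than 10 percentage points, and the median log2 fold change of all sequences stayed within 0.015 of 0. Without the fold-change minimum 616, 1860, 2812 and 4631 sequences passed at 16, 24, 36 and 48 h. With the 6 libraries of a contrast alone, 166 were called at 16 h and 663 at 24 h. DESeq2 called 624 at 16 h and 310 at 0 h, and counts summed per locus gave 1634 loci at 48 h. For the changes from 16 to 24 h, 24 to 36 h and 36 to 48 h, DESeq2 called 245, 329 and 236 sequences, limma on the authors' normalized values 106, 235 and 81, and the 24 libraries alone 14, 82 and 4. Locus sums gave 87 for 16 to 24 h. Loci with opposite calls at 48 h numbered 56 by DESeq2 and 74 by the newer quasi-likelihood method. Head and foot lists with a log2 fold change of at least 1 summed at 48 h to 69322 (head) and 83250 CPM (foot) in apical and 43650 and 139389 CPM in basal tips. The cause of these shifts was not tested; shorter or longer lists and fewer libraries are part of their construction.

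The replicate block within each time gave 152, 298 and 223 calls for the 3 changes, 9376 for any difference and 3081 for a changing difference. It changed no other count by over 1.5 times, and a letter effect shared by all times changed none. With a replicate left out, calls ranged from 241 to 335 at 16 h, from 656 to 1051 at 24 h and from 62 to 108 at 0 h. They ranged from 8 to 61, 37 to 123 and 8 to 49 for the 3 changes and from 903 to 1179 for 16 to 48 h. Any difference gave 3716 to 5351, a changing difference 807 to 1238, and loci with opposite calls 22 to 34. The named sequences kept their call in 274 recomputations and lost it in 14, of which 6 were for seq23471_loc09648_tr0575216 at 24 h and 5 at 36 h. The other 3 were sequences of the locus that gave 2 named sequences at 16 h, at 16 and 24 h with the 6 libraries alone.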
